A study of Sus scrofa with 6 samples.

Results

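The liver and gut miRNAs miR-122, miR-192 and miR-194 were followed in small RNA libraries of pig skeletal muscle. Every listed miRNA whose first name begins with ssc-miR-122, ssc-miR-192 or ssc-miR-194 was taken, with both arms, which gave 6 of 1143 listed miRNAs. They were chosen by name and not by level. Of the 6, the arms ssc-miR-122-5p, ssc-miR-192-5p and miR-194-5p averaged 10 normalized reads or more in at least 1 breed and were among the 548 miRNAs tested, and the 3 passenger (3p) arms were not.

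The libraries came from longissimus dorsi muscle of 3 Meishan (MS) and 3 Large White (LW) females, and no treatment was given to either breed. MS is labelled an obese breed and LW a lean breed. The study's methods describe fetuses at 35 dpc (days post-conception), each from a different sow, while the sample labels give an age of 2 years for both breeds. Breed was therefore compared at one stage only, and each library was 1 animal.

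miR-122 is the dominant miRNA of hepatocytes, where it takes part in cholesterol and lipid metabolism and in keeping the differentiated state, and it is a well-known marker of liver RNA in blood. miR-192 and miR-194 are enriched in liver, intestine and kidney. In human and mouse they are made as a pair from shared primary transcripts, and miR-215, a close relative of miR-192, is made with a further copy of miR-194. None of them counts among the classical muscle miRNAs.

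The 6 mature sequences and that of miR-215-5p are shown because the seed (bases 2 to 8, in capitals) is the stretch that mainly pairs with target mRNAs. They are the sequences that the study's miRNA list gives, written as DNA from 5′ to 3′.
ssc-miR-122-5p: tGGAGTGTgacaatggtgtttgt
ssc-miR-192-5p: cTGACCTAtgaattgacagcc
ssc-miR-194-5p: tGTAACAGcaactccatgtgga
ssc-miR-215-5p: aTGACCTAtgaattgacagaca
ssc-miR-122-3p: aACGCCATtatcacactaaat
ssc-miR-192-3p: cTGCCAATtccataggtcacag
ssc-miR-194a-3p: cCAGTGGGgctgctgttatctg

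miR-192-5p and miR-215-5p shared one seed and were equal at 19 of the 21 positions compared from the 5′ end. No other listed miRNA had the seed of miR-122-5p, of miR-194-5p or of any of the 3p arms.

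The hairpins of the 3 members are shown because the genome places miR-192 and miR-194a side by side. Capitals mark the mature arms, and the positions are the study's own on Sscrofa10.2.
ssc-mir-122: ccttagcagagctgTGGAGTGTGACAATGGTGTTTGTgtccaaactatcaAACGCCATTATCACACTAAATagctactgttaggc
ssc-mir-192: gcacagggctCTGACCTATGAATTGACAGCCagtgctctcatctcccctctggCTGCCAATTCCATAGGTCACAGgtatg
ssc-mir-194a: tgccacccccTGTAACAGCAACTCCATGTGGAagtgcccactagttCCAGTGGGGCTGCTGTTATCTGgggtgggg

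The mir-122 hairpin lay at chr1:179916327-179916422 on the minus strand, mir-194a at chr2:6416775-6416859 and mir-192 at chr2:6416971-6417077, both on the plus strand. Thus 111 bases separated the positions of mir-194a and mir-192. The listed spans of 96, 85 and 107 bases are longer than the hairpins of 85, 76 and 80 bases that the same list prints for mir-122, mir-194a and mir-192. A second pair, mir-215 at chr10:11786564-11786665 and mir-194b at chr10:11786871-11786948, was on the minus strand with 205 bases between. In the RefSeq annotation of the later assembly Sscrofa11.1, MIR122 was in no other listed gene and between ALPK2 and NEDD4L. MIR192 and MIR194A were in no other listed gene and between ATG2A and EHD1. MIR194B and MIR215 were within the span of IARS2, which encodes the mitochondrial isoleucyl-tRNA synthetase.

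The study listed miR-194a-5p and miR-194b-5p as a single miRNA. The listed sequence matched mir-194a without a mismatch and differed from mir-194b by G10A (hairpin base first, counted from 1 at the 5′ end of the mature arm). Going by the listed sequence, miR-194-5p here stands for mir-194a, and reads with the mir-194b sequence were not analysed here. Single reads were not inspected, so a part of mir-194b in these values was not tested.

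The libraries held 3282601, 2170489 and 1038988 listed reads in MS replicates 1, 2 and 3, and 2028427, 3419280 and 3190208 in LW replicates 1, 2 and 3. These read numbers were recovered from the normalized values, in which 1 read was worth 0.720 to 1.69 normalized reads. The labelled tissue was checked against muscle miRNAs: the 8 listed arms of miR-1, miR-133a, miR-133b and miR-206 summed to 61667 to 85159 normalized reads in MS and 17321 to 22462 in LW. In whole tissue, fewer cells of a type and less RNA per cell cannot be told apart.

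miR-122-5p was lower in MS than in LW, and 1 LW library held most of its reads. It had 46.8, 89.1 and 74.4 normalized reads in MS replicates 1, 2 and 3, against 181.7, 236.7 and 2860 in LW replicates 1, 2 and 3. LW replicate 3 stood far above the other 5 libraries, and the breeds did not overlap. The recovered reads behind these values were 65, 97 and 44 in MS and 145, 291 and 3131 in LW. Counting error alone gave LW replicate 3 a 95% Poisson interval of 2761 to 2962 normalized reads and LW replicate 2 an interval of 210.3 to 265.5.

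The mean was 70.1 ± 21.5 normalized reads in MS and 1093 ± 1531 in LW (SD, n = 3 each), so that the LW spread exceeded the LW mean. On the log2(normalized reads + 1) scale the difference was -2.86 ± 0.80 (MS minus LW, SE), with an adjusted p = 0.0082 in limma. The SE of log2 differences, here and below, is the moderated one of limma, which borrows from the spread of the other tested miRNAs. The residual SD of miR-122-5p itself was 1.58 on that scale, so its call rests in part on this borrowing. By size of change miR-122-5p ranked 88 of 548. Without LW replicate 3 the difference was -1.60 ± 0.41 (adjusted p = 0.0076 in limma), so the direction and the call remained while the estimated fold dropped. By arithmetic means, MS over LW without that library was 0.335.

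LW replicate 3 supplied 87.2% of the summed LW signal of miR-122-5p and was 13.7 times the mean of the other LW libraries, which was 209.2 normalized reads. Its log2 excess over those libraries was 3.78, the highest of the 548 tested miRNAs in that library. In total 28 miRNAs were more than 2-fold and 3 more than 4-fold above the other LW libraries there, some of them from a few reads. For comparison, the highest excess of any tested miRNA in the other 5 libraries lay between 2.34 and 2.92. Within MS the excess of miR-122-5p was -0.79, 0.59 and 0.20 in replicates 1, 2 and 3, so no MS library stood apart in the same way. Ranked within each library by level, miR-122-5p was number 371, 308 and 319 in MS replicates 1, 2 and 3, and number 234, 227 and 97 in LW replicates 1, 2 and 3.

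**Figure D1:**
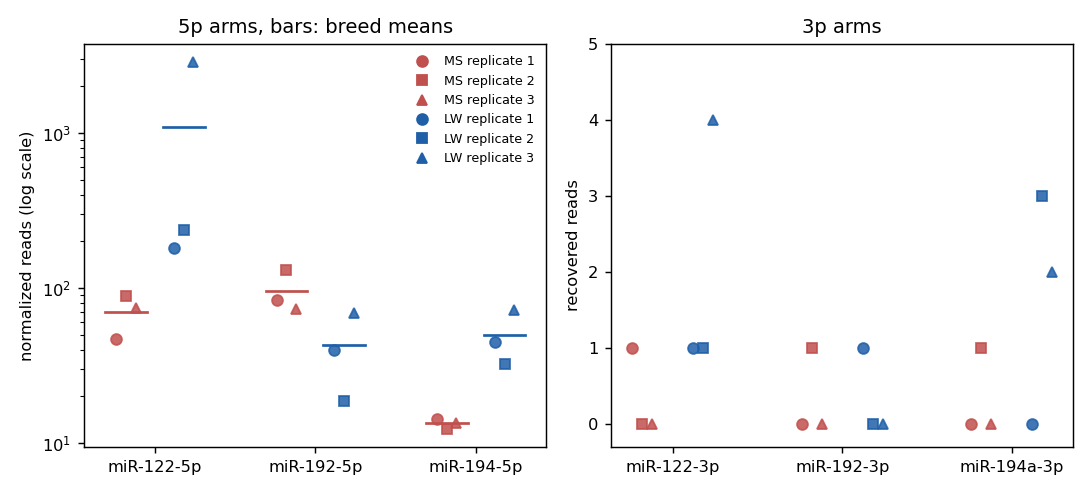
Normalized reads of the 5p arms on a log axis (left) and recovered reads of the 3p arms (right) in each library, with MS left of LW, marker shapes for replicates and horizontal bars for breed means. LW replicate 3 reaches 2860 normalized reads of miR-122-5p, while no 3p arm exceeds 4 reads in any library.

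miR-192-5p was higher in MS. It had 84.2, 131.3 and 73.6 normalized reads in MS replicates 1, 2 and 3, against 40.1, 18.7 and 69.4 in LW replicates 1, 2 and 3. The breeds did not overlap, but MS replicate 3 and LW replicate 3 nearly met, with 95% Poisson intervals of 53.4 to 99.0 and 54.7 to 86.9. The mean was 96.4 ± 30.7 normalized reads in MS and 42.7 ± 25.5 in LW (SD, n = 3 each). The log2 difference was 1.29 ± 0.47 (SE), with an adjusted p = 0.0294 in limma, and ranked 287 of 548 by size. The call was lost without any 1 of 3 libraries: the difference was 1.05 (adjusted p = 0.10 in limma) without MS replicate 2, 1.34 (0.0584) without LW replicate 1 and 0.81 (0.137) without LW replicate 2. Without LW replicate 3 it was 1.73 ± 0.47 (adjusted p = 0.0100 in limma).

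miR-194-5p was lower in MS, with close values among the MS libraries. It had 14.4, 12.4 and 13.5 normalized reads in MS replicates 1, 2 and 3, against 45.1, 32.5 and 72.2 in LW replicates 1, 2 and 3. All LW libraries lay above all MS libraries by more than 2-fold. The recovered reads were few, 20, 13.5 and 8 in MS and 36, 40 and 79 in LW. Counting intervals (95%, Poisson) of single libraries ran as wide as 5.84 to 26.7 normalized reads in MS replicate 3. The mean was 13.4 ± 1.0 normalized reads in MS and 49.9 ± 20.2 in LW (SD, n = 3 each). The log2 difference was -1.75 ± 0.41 (SE), with an adjusted p = 0.0028 in limma, ranked 209 of 548, and was -1.45 ± 0.46 (adjusted p = 0.0204 in limma) without LW replicate 3.

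Thus 3 of 3 tested members were called, 1 of them higher in MS and 2 lower, where 62.2% of all tested miRNAs passed, 34.1% higher and 28.1% lower. The breeds did not overlap for 3 of 3 members and for 67.7% of all tested miRNAs. Without LW replicate 3, again 3 of 3 members passed, beside 54.7% of all. A call was therefore the common outcome in this comparison and does not set these miRNAs apart. The median log2 difference was -1.75 over the 3 members and 0.11 over all 548. In LW replicate 3 the excess over the other LW libraries was 1.31 for miR-192-5p (number 16 of 548) and 0.90 for miR-194-5p (number 39), both far under the 3.78 of miR-122-5p.

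**Figure D2:**
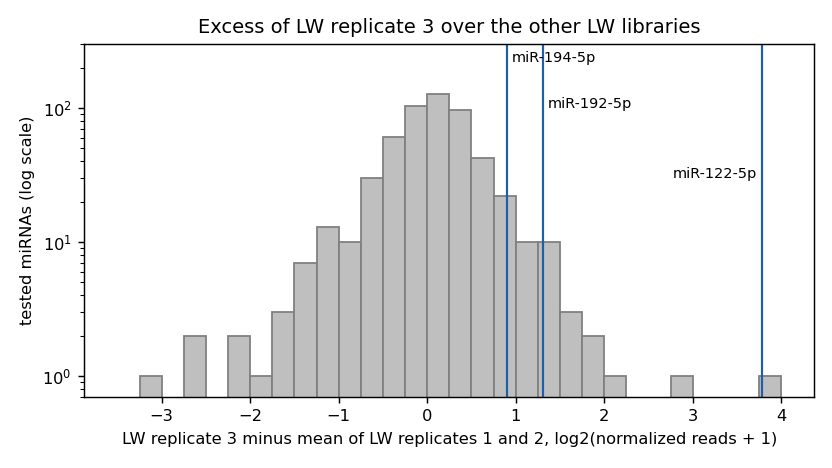
Histogram of the log2(normalized reads + 1) excess of LW replicate 3 over the mean of LW replicates 1 and 2 for the 548 tested miRNAs, with the number of miRNAs on a log axis and lines at the members. miR-122-5p is at 3.78, beyond every other tested miRNA, and miR-192-5p and miR-194-5p are at 1.31 and 0.90.

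The 3p arms were close to the limit of detection. miR-122-3p had 1, 0 and 0 recovered reads in MS replicates 1, 2 and 3, against 1, 1 and 4 in LW replicates 1, 2 and 3. miR-194a-3p had 0, 1 and 0 reads in MS against 0, 3 and 2 in LW. miR-192-3p had 0, 1 and 0 reads in MS against 1, 0 and 0 in LW. A library with 0 reads allows up to 3 reads, or 2.16, 2.75 and 5.08 normalized reads in MS replicates 1, 2 and 3 and 3.76, 2.44 and 2.74 in LW replicates 1, 2 and 3, so a breed difference was not detectable at this depth. Intervals and limits of this kind cover counting error only. Over the 6 libraries the 5p arm outnumbered the 3p arm by 3773 reads to 7 for miR-122, 434.5 to 2 for miR-192 and 196.5 to 6 for miR-194. In each hairpin the 5p arm was the abundant one.

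miR-192-5p and miR-194-5p, whose listed sequences match the neighbours mir-192 and mir-194a, moved in opposite directions between the breeds. Within a library, miR-192-5p over miR-194-5p (normalized reads) was 5.85, 10.6 and 5.44 in MS replicates 1, 2 and 3, against 0.889, 0.575 and 0.962 in LW replicates 1, 2 and 3. Every MS library had more miR-192-5p than miR-194-5p. Every LW library had less by value, but there the 95% Poisson intervals of the 2 arms overlapped in each library. In LW replicate 3 they were 54.7 to 86.9 normalized reads for miR-192-5p and 57.1 to 89.9 for miR-194-5p. The ratio of (normalized reads + 1) averaged 2.71 ± 0.52 on the log2 scale in MS and -0.33 ± 0.38 in LW (SD, n = 3 each), a difference of 3.04 with p = 0.10 in a two-sided exact permutation test, the smallest p that 3 animals against 3 allow. A ratio within a library does not depend on library scaling beyond the pseudocount. It does depend on the few reads of miR-194-5p in MS.

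**Figure D3:**
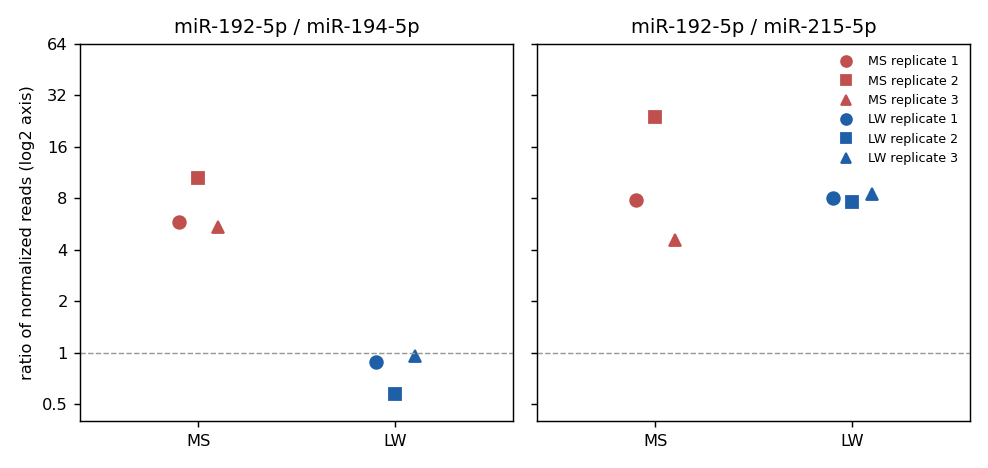
Ratio of normalized reads of miR-192-5p to miR-194-5p (left) and to miR-215-5p (right) in each library on a log2 axis, with MS left of LW and a dashed line at 1. For miR-194-5p the MS libraries lie at 5.44 to 10.6 and the LW libraries at 0.575 to 0.962, while for miR-215-5p the breeds overlap.

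miR-215-5p, the seed partner of miR-192-5p, was rarer, with 10.8, 5.51 and 16.1 normalized reads in MS replicates 1, 2 and 3 against 5.01, 2.44 and 8.22 in LW replicates 1, 2 and 3. The breeds overlapped, and the log2 difference of 0.93 ± 0.56 (SE) did not pass (adjusted p = 0.168 in limma). miR-192-5p over miR-215-5p was 7.8, 23.8 and 4.58 in MS replicates 1, 2 and 3, against 8.0, 7.67 and 8.44 in LW replicates 1, 2 and 3. The breeds overlapped in this ratio. It rests on 15, 6 and 9.5 recovered reads of miR-215-5p in MS and on 4, 3 and 9 in LW, so that a difference in this ratio, or its spread between libraries, was not resolved at this depth.

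Among the members themselves, miR-122-5p and miR-194-5p varied together over the 6 libraries (Pearson's r = 0.89 on the log2 scale), whereas miR-192-5p had r = -0.22 with miR-122-5p and r = -0.50 with miR-194-5p. Such values describe only 6 libraries, which also differ in depth and breed, so that r takes in the breed differences of the members. The tested miRNAs most like miR-122-5p were miR-105-3p (r = 0.96), miR-27a-5p (r = 0.93) and PC-3-3p (r = 0.92), which the study classed as conserved from other mammals. Those most like miR-192-5p were miR-195-5p (r = 0.92), miR-28-5p (r = 0.91) and PN-87-5p (r = 0.91), a candidate miRNA in the study's naming. Most like miR-194-5p were miR-151-5p (r = 0.995), miR-2483-3p (r = 0.989) and miR-24-3p (r = 0.984).

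miR-27a-5p was also the miRNA with the second highest excess in LW replicate 3, at 2.83. It had 23.7, 19.3 and 18.6 normalized reads in MS replicates 1, 2 and 3, against 21.3, 25.2 and 170.8 in LW replicates 1, 2 and 3. As for miR-122-5p, LW replicate 3 was the library that stood apart. The next in that order were miR-107-5p (2.01), the conserved PC-338-3p (1.94), miR-26a-3p (1.79) and the candidate PN-44-3p (1.73). Their LW levels were low: miR-107-5p had 0, 3.25 and 7.31 normalized reads in LW replicates 1, 2 and 3, PC-338-3p had 0, 7.32 and 10.05, and miR-26a-3p had 3.76, 0.813 and 9.13. PN-44-3p had 6.26, 4.07 and 19.2. Such excesses rest on few reads per library. miR-107-5p, PC-338-3p, miR-26a-3p and PN-44-3p each reached the mean for testing through MS alone.

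Markers of other tissues were read beside the members, since a fetal dissection can carry other cells. The other liver and gut miRNAs on the list, miR-215 and miR-885, had 4 arms. The 1 tested, miR-215-5p, reached the mean for testing through MS alone and did not pass, where 62.2% of all tested miRNAs did. The 4 arms summed to 13.7, 5.51 and 16.1 normalized reads in MS replicates 1, 2 and 3 and 10.02, 6.51 and 12.8 in LW replicates 1, 2 and 3. LW replicate 3 was thus the highest LW library for this sum, but by far less than for miR-122-5p. The sum rests on few reads, with 4, 3 and 9 recovered reads of miR-215-5p in LW replicates 1, 2 and 3. miR-885-5p, a miRNA found in human liver, had 2.16, 0 and 0 normalized reads in MS against 5.01, 3.25 and 3.65 in LW. These LW values were little above the 3-read limits of 3.76, 2.44 and 2.74 normalized reads, so the order of the LW libraries was not resolved.

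Pancreas-enriched miR-216 and miR-217 summed to 190.0 to 299.5 normalized reads in MS and 696.0 to 763.8 in LW, and 2 of the 3 tested arms passed, both lower in MS, where 62.2% of all tested miRNAs passed and 28.1% were lower. The median log2 difference was -1.39 over the 3 arms and 0.11 over all tested miRNAs. miR-216-5p was at 71.2, 84.5 and 155.7 normalized reads in MS replicates 1, 2 and 3, against 390.9, 404.3 and 378.2 in LW replicates 1, 2 and 3. LW replicate 3 had the lowest pancreas sum of the LW libraries, unlike its miR-122-5p. The number of pancreas arms called, in either direction, was thus close to the share over all miRNAs.

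The sums of the other marker lists were larger in MS, without overlap between the breeds. Only arms that reached the mean for testing in both breeds are counted next. Beside the 62.2% of all tested miRNAs that passed and the 34.1% higher in MS, 5 of 5 skeletal muscle arms passed. So did 3 of 4 erythroid arms, 1 of 1 epithelial arms and 2 of 4 leukocyte arms, each higher in MS. The muscle log2 differences ran from 0.66 (miR-206-3p) to 3.92 (miR-1-3p), and the epithelial arm, miR-205-5p, had 2.04. The medians were 2.39 over the erythroid and 1.48 over the leukocyte arms, and 0.11 over all tested miRNAs. miR-133b-5p, miR-206-5p, miR-1-5p and miR-429-3p reached that mean through MS alone and were left out of these counts. In limma miR-486-5p (0.34, adjusted p = 0.336), miR-155-5p (0.75, adjusted p = 0.0792) and miR-150-5p (0.42, adjusted p = 0.382) did not pass, with the log2 difference given first. The summed normalized reads were 6107 to 10782 in MS and 3510 to 4571 in LW for the erythroid list, 425.3 to 1252 and 126.5 to 248.1 for the epithelial list, and 1235 to 1699 and 276.9 to 444.1 for the leukocyte list. In LW replicate 3 these sums were 3578, 158.9 and 375.4, each between the values of the other LW libraries, as was its muscle sum of 19493. For none of these lists, nor for the pancreas list, was LW replicate 3 the highest LW library. The part of other cells in the breed differences was not tested.

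**Figure D4:**
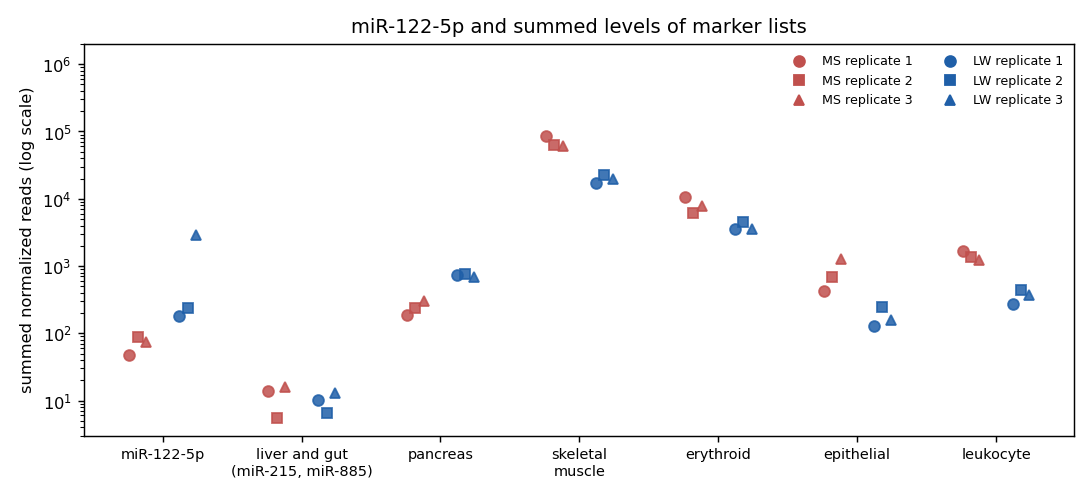
Normalized reads of miR-122-5p and summed normalized reads of the marker lists in each library on a log axis, with MS left of LW and marker shapes for replicates. LW replicate 3 stands apart for miR-122-5p at 2860, and lies at 696.0 for the pancreas list and at 19493 for the skeletal muscle list, near the other LW libraries.

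The direction of all 3 members stayed the same in every alternative that gave them a value. miR-194-5p passed in 19 of 19, between -2.01 and -1.30 on the log2 scale. miR-122-5p passed in 19 of the 20 that gave it a p. Its values in these 20 lay between -3.96, by the study's test, where it did not pass, and -1.60. DESeq2 gave it -4.00 without a p. miR-192-5p passed in 15 of 19. Its values in all 19 lay between 0.81, without LW replicate 2, where it did not pass, and 1.73. Scaling all libraries to equal sums moved the median of all miRNAs to 0.54 and gave log2 differences of -2.42 for miR-122-5p, 1.72 for miR-192-5p and -1.33 for miR-194-5p, or -2.96, 1.19 and -1.86 relative to that median.

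**Figure D5:**
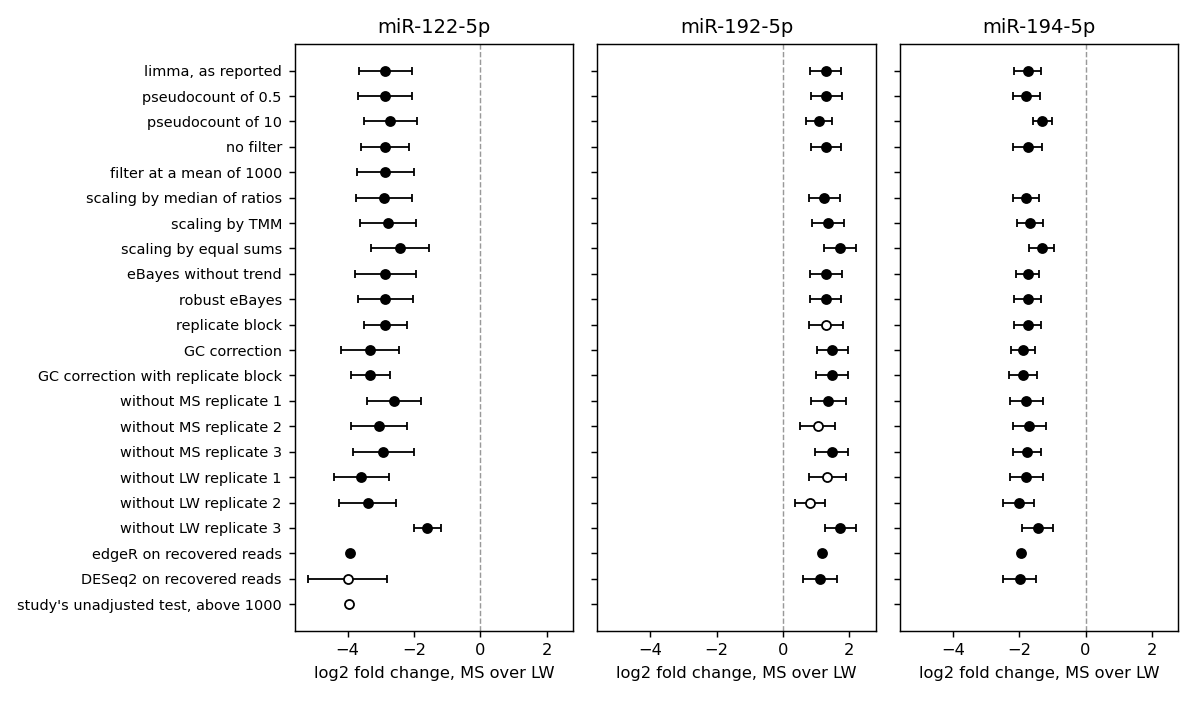
Log2 fold change, MS over LW, of the tested members under each way of processing, with bars of 1 SE where the tool gives one, filled circles for values past the threshold and open circles for values not past it or with no p. miR-122-5p and miR-194-5p stay below 0 and miR-192-5p above 0 throughout, with open circles for miR-192-5p in 4 settings.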

How the data were processed

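The authors extracted RNA with a mirVana kit, made TruSeq small RNA libraries and processed reads of 18 to 26 nt with ACGT101-miR in a version not given in the sources used here. Matches to Rfam, NCBI and Repbase were taken out, the rest was placed by BLAST on miRBase precursors and Sscrofa10.2, and RNAfold gave the hairpins of candidates. The deposited signal counts, for each miRNA, the reads of its commonest sequence, which the authors scaled by the mappable reads of the library to a target that is not stated. Within 0.1 read, 93.3% to 95.7% of the low values (20 reads or fewer) were a whole number of steps, the step being the value of 1 read. Division by the step gave the recovered reads. Fractional reads such as 13.5 and 43.5 are values off these steps.

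Breeds were compared on log2(normalized reads + 1) with limma 3.58.1 (R 4.3.3, eBayes with trend, two-sided) over the 548 miRNAs that averaged 10 or more in either breed, with Benjamini-Hochberg adjustment over all of them and a threshold of 0.05. The fit was tested on simulated data first. Alternatives were pseudocounts of 0.5 and 10, no filter or a mean of 1000, and scaling by median of ratios, TMM or equal sums. Others were eBayes without trend or robust, a replicate block, a GC loess with a span of 0.75, and block and GC loess combined. The rest were omission of each library, count models on recovered reads (DESeq2 1.42.0, edgeR 4.0.16) and an unadjusted t-test modelled on the study's, above a mean of 1000. Python 3.11.15, pandas 2.3.3, scipy 1.17.1 and matplotlib 3.10.9 did the rest.

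Members and lists were chosen with earlier results of these data known. Named beside the members and the tissue marker lists (liver and gut, pancreas, skeletal muscle, erythroid, epithelial, leukocyte) were miRNAs with a member's seed, the 3 with the highest r to each tested member, and those with the largest excess in LW replicate 3. The 2 miR-1224 rows that share the first letters of miR-122 were left out, the authors' mean columns were not used, and 4 lines of the table as well as miR-802, miR-375, miR-200a, miR-200b, miR-200c, miR-141, miR-203 and miR-223 are not analysed here.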

Additional observations from a re-analysis of the deposited data

How the results depend on the processing

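With 3 animals a breed, few reads for miR-194-5p and 1 library that sets the LW mean of miR-122-5p, fold sizes are imprecise. All miRNAs called numbered 122 with a filter at a mean of 1000 and 110 by the study's own unadjusted test above 1000, against 341. Of the members only miR-122-5p reached a mean of 1000, through LW alone (1093 normalized reads against 70.1 in MS). LW replicate 3 set that LW mean. The members called were thus 1 with the filter in limma and 0 by the t-test. By that t-test the log2 change of miR-122-5p was -3.96 with an unadjusted p = 0.312, which is not an exact p. On recovered reads edgeR called 345 and DESeq2 347 miRNAs. DESeq2 gave miR-122-5p a log2 change of -4.00 and, for this 1 of 548 miRNAs, no p, so that 2 members were called with DESeq2. With pseudocount 10 the log2 ratio of miR-192-5p to miR-194-5p differed by 2.40 instead of 3.04. Leaving out each library gave miR-192-5p 0.81 to 1.73, miR-122-5p -3.58 to -1.60 and miR-194-5p -2.01 to -1.45. Scaling to equal sums gave 232 calls higher and 118 lower in MS, against 187 and 154, and moved the median of all miRNAs to 0.54 from 0.11. The cause was not tested.

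Same-numbered MS and LW libraries did not deviate together: their deviations from the breed mean correlated at 0.005, -0.21 and 0.097. Those of differently numbered libraries correlated at -0.28 to 0.36. These values do not show whether the samples were paired. With the replicate block, miR-192-5p kept 1.29 but not its call (adjusted p = 0.0553 in limma), and with GC correction added it passed (0.0215). The block left 332 calls and the log2 ratio at 3.04 (p = 0.25, exact sign flips, the smallest possible).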
